A study of Cocos nucifera and Zingiber officinale with 11 samples.

Results

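Exosome-like nanoparticles (ELNs) are membrane vesicles that can be pelleted from the juice of edible plants, and the miRNAs described here were those listed for the ELNs of Hami melon fruit, a cultivated form of Cucumis melo. The members were all miRNA names with a level above 0 in the Hami melon library, which gave 80 of the 418 names in the merged table of 11 plants (19.1%). Levels were given in RPM, reads scaled to a fixed total per library, and shares are percent of the summed RPM of a library. Hami melon, like ginger, pea, soybean and tomato, was ground in buffer to obtain the juice, while blueberry, grapefruit, kiwifruit, orange and pear were squeezed by hand, and the step was not stated for coconut. The pellet came from differential centrifugation and a final ultracentrifugation and whether a miRNA lay within a vesicle or outside it was not tested. No treatment, genotype or age was given for any plant. The library called pea here carries lima bean in its title and pea in its description. Each plant was 1 library, so no value had a replicate and no test was made between plants: 1 plant set against 10 cannot give a two-sided exact permutation p under 0.0909.

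Plant miRNAs are cut from hairpin precursors by a Dicer-like enzyme, which leaves a short duplex of a 5p and a 3p strand whose 3′ ends stick out. One strand is loaded into an Argonaute protein and guides cleavage of mRNAs with near perfect complementarity, and the other strand is usually degraded. The deeply conserved families act mostly on transcription factors of development: MIR-159 on GAMYB-like genes, MIR-319 on TCP genes, MIR-164 on NAC genes, MIR-166 on HD-ZIP III genes and MIR-396 on growth-regulating factors. Names in the tables carry the prefix of the species whose reference was matched, such as mtr for barrel medic, ath for thale cress, aly for its relative Arabidopsis lyrata, gma for soybean, zma for maize, osa for rice, bdi for Brachypodium and cme for melon.

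The sequences that carry the main results were the most abundant sequence listed for each name in Hami melon, printed 5′ to 3′ with bases 2 to 8 in capitals and T for U. The first set holds the leading members of the conserved families.
mtr-MIR-159a: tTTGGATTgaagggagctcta
mtr-MIR-396b-5p: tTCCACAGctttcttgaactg
mtr-MIR-319d-3p: tTGGACTGaagggagctccc
aly-MIR-166h-3p: tTCGGACCaggcttcattccc
gma-MIR-166h-3p: tCTCGGACcaggcttcattcc
ath-MIR-164b-5p: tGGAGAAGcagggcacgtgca
zma-MIR-164c-3p: cATGTGCCcctcttctccatc
mtr-MIR-398a-3p: tTGTGTTCtcaggtcacccct

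The second set holds the leading names matched to the melon reference, shown because most were listed in no other plant, and MIR-2111m-5p and MIR-5538, which were found nowhere else or in 1 other plant.
cme-MIR-477b: tCTCTCCCtcaaaggcttctgg
cme-MIR-530b: cCTGCATTtgcacctacacct
cme-MIR-169k: tGAGCCAAggatgacttgcct
cme-MIR-399d: tGCCAAAGgagagttgcccttc
cme-MIR-169t: tGAGCCAAgaatgacttgccggc
mtr-MIR-2111m-5p: tAATCTGCatcctgaggttt
osa-MIR-5538: cTGAACTCaatcacttgctgcc

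The third set holds short sequences that were abundant in Hami melon, with the last 3 bases in capitals because those of ath-MIR-8175, bdi-MIR-5054 and osa-MIR-5077 are CCA, the bases found at the 3′ end of mature tRNAs.
ath-MIR-8175: ccccggcaacggcgCCA
bdi-MIR-5054: ccccacggtgggcgCCA
osa-MIR-5077: tcacgtcgggttcaCCA
zma-MIR-398b-5p: gggggacggactggGAA

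The Hami melon library summed to 64041 RPM over its 80 names. Every value in it was a whole multiple of 0.730 RPM, which was taken as the value of 1 read. This gave 87774 miRNA reads out of an implied total of 1370593 and a smallest listed value of 5 reads, or 3.65 RPM. The implied total is far below the number of high-quality reads that the paper gives for this library, and the reason was not tested. All read counts and intervals rest on steps of this kind. The other libraries held from 4541 miRNA reads in coconut to 377989 in kiwifruit, and from 32 names in ginger to 127 in soybean. Hami melon ranked 7th of 11 by miRNA reads, and 7th by names together with pea, which also listed 80. A name that was not listed in Hami melon therefore lay under about 0.00570% of its summed level, and a name not listed in coconut could be far more abundant than that.

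A single name, mtr-MIR-159a, held 44.0% of the Hami melon level (95% Wilson interval 43.7 to 44.3%). Its level was 28169.6 RPM (95% Poisson interval 27889 to 28452), and these intervals, like all below, cover counting error only. The next 8 names, each over 1000 RPM, brought the share to 91.4%. They were mtr-MIR-396b-5p at 6116 RPM, ath-MIR-8175 at 5882 RPM, mtr-MIR-319d-3p at 4269 RPM, aly-MIR-166h-3p at 3701 RPM, ath-MIR-164b-5p at 3152 RPM, gma-MIR-166h-3p at 2865 RPM, bdi-MIR-5054 at 2793 RPM and zma-MIR-398b-5p at 1613 RPM. Along this order the intervals of neighbours overlapped for mtr-MIR-396b-5p (5986 to 6249 RPM) with ath-MIR-8175 (5754 to 6012 RPM) and for gma-MIR-166h-3p (2776 to 2956 RPM) with bdi-MIR-5054 (2705 to 2883 RPM), and were separate for the other pairs. Below them a step down led to zma-MIR-164c-3p at 700.4 RPM, and 23 of the 80 names rested on fewer than 10 reads. The 20 most abundant names held 97.2% of the level.

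**Figure D1:**
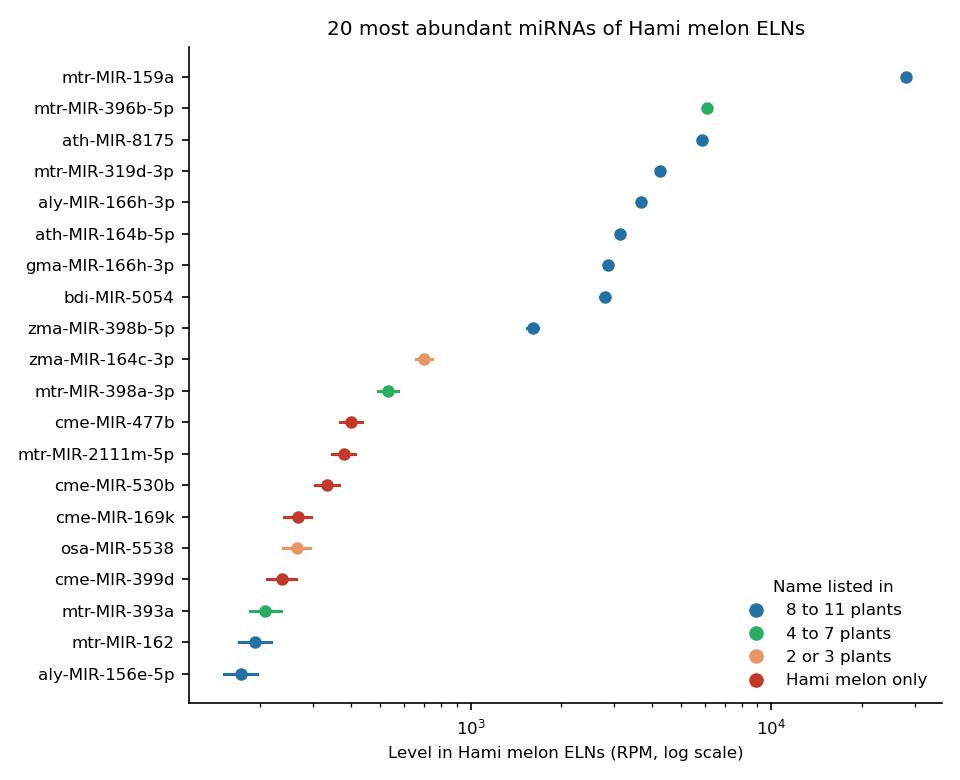
Level of the 20 most abundant miRNAs in Hami melon ELNs in RPM on a log axis, with bars for the 95% Poisson interval and colours for the number of plants that list the name. mtr-MIR-159a at 28169.6 RPM stands apart from the next name at 6116 RPM, and 5 of the 20 names were listed in Hami melon only.

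Conserved regulators of development made up most of the profile. The MIR-159 family held 44.0% with 4 names, MIR-166 held 10.6% with 6 names, MIR-396 held 9.64% with 3 names, MIR-319 held 6.67% with 1 name and MIR-164 held 6.04% with 4 names. Families that act on nutrient and copper homeostasis were smaller. MIR-398, which acts on copper superoxide dismutases, held 3.35%, of which 2.52 points were the 17-nt zma-MIR-398b-5p and 0.831 points the 21-nt mtr-MIR-398a-3p. The 17-nt sequence places on its reference only with 1 mismatch and 2 bases outside it, and whether it belongs to this family was not tested. MIR-2111 held 0.591% and MIR-399, which acts on the phosphate regulator PHO2, held 0.374%. MIR-169, which acts on NF-YA genes, held 0.613% with 5 names, and MIR-156 and MIR-157, which act on squamosa promoter binding-like genes, held 0.602% and 0.0900%. The regulators of silencing were below the median of the other plants but not the lowest. MIR-162, which acts on DCL1, held 0.300% against a median of 1.06% and ranked 8th. MIR-168, which acts on AGO1, held 0.232% against a median of 1.12% and ranked 9th. MIR-162 was lower still in ginger, grapefruit and soybean (0.244%). MIR-168 was lower still in pea (0.0894%) and soybean (0.105%). The auxin regulators were led by mtr-MIR-393a, which acts on auxin receptor genes, at 208 RPM, and mtr-MIR-167b-5p, which acts on auxin response factors, stood at 52.5 RPM. Of the remaining lists, the leading members were mtr-MIR-162 at 192 RPM for silencing, aly-MIR-156e-5p at 172.2 RPM for the squamosa regulators, gma-MIR-394f, which acts on the F-box gene LCR, at 24.8 RPM, cme-MIR-858, which acts on MYB genes of flavonoid synthesis, at 16.8 RPM, and gma-MIR-171k-3p and sly-MIR-171e, which act on GRAS genes, at 3.65 RPM each.

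The share of mtr-MIR-159a was the highest of the 11 plants, but only just. In the other plants it ran from 0.0886% through a median of 4.22% to 42.0% in soybean, where the interval was 41.8 to 42.2%. On the RPM scale the order turned: soybean listed 223926 RPM, and Hami melon was 3rd. The share of mtr-MIR-319d-3p was 6.67% in Hami melon, second to ginger at 47.1%, with a median of 0.590% over the other plants. Counted as a family, MIR-319 reached 6.35% in pea, close to Hami melon, and the median was 1.17%. The 2 leading MIR-166 names did not stand out, since aly-MIR-166h-3p ranked 9th and gma-MIR-166h-3p ranked 4th by share.

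Of the 49 names listed in Hami melon and in at least 1 other plant, 14 had their highest share in Hami melon, or 7.41% of the 189 names found in 2 or more plants. The same count ran from 7 of 59 names in grapefruit to 33 of 89 in orange. Only 4 of the 49 (8.16%) exceeded the next plant by 5 times or more, and these 4 were 2.12% of the 189. They were zma-MIR-164c-3p, mtr-MIR-398a-3p, osa-MIR-5538 and ath-MIR-164b-5p. In the other plants the count at 5 times ran from 1 in grapefruit to 16 in orange. Among the other 10 names, vvi-MIR-3632-5p, osa-MIR-164e, aly-MIR-771-5p and ath-MIR-399d rested on 20 reads or fewer and their ratios had intervals that included 1.

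**Figure D2:**
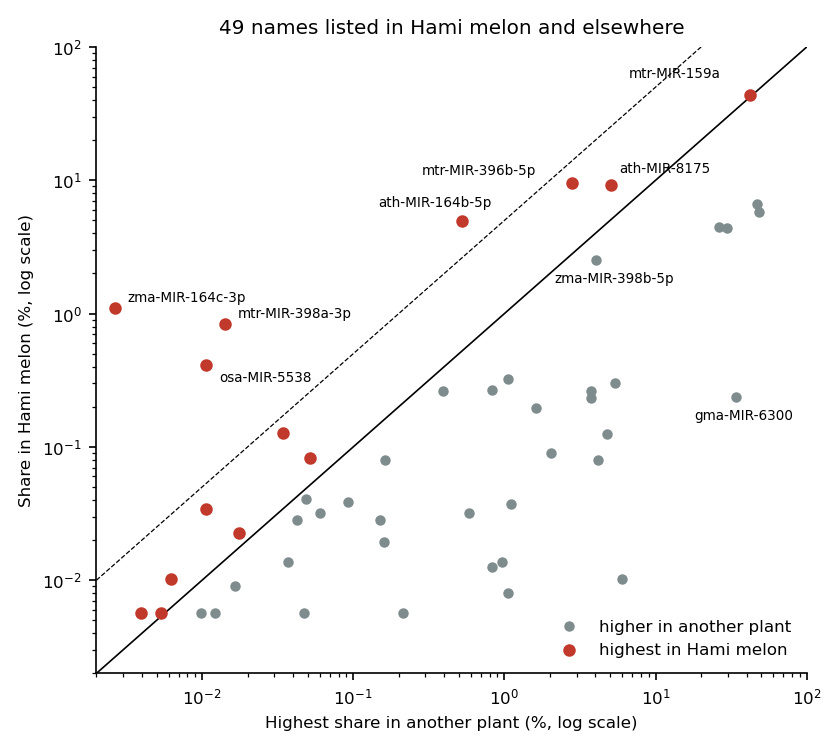
Share of the 49 shared names in Hami melon against the highest share in any other plant, both in percent on log axes, with a solid line at equality and a dashed line at 5 times. The 14 red points lie above the solid line, and zma-MIR-164c-3p, mtr-MIR-398a-3p, osa-MIR-5538 and ath-MIR-164b-5p lie above the dashed line.

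Both strands of MIR-164, which acts on NAC genes of organ boundaries, were among these 4 names. ath-MIR-164b-5p held 4.92% in Hami melon (4.78 to 5.07%), while the 8 other plants that listed it reached at most 0.521% in pear, with a median of 0.0209% over all 10. The ratio to pear was 9.45 (8.66 to 10.3). All 8 listed exactly the 21-nt sequence printed above, so the contrast was in amount and not in sequence. The opposite strand, zma-MIR-164c-3p, held 1.09% in Hami melon and 0.00267% in orange, where it rested on 5 reads. Pear and kiwifruit listed a near-identical strand under the name ath-MIR-164b-3p at 0.0658% and 0.0463%, and against the larger of these the Hami melon share was 16.6 times as high. The pear strand carries T16C relative to that of Hami melon, with positions counted from 1 at the 5′ end and the Hami melon base first. The family as a whole held 4.27% in pear, but there 3.37% was zma-MIR-164b-3p, listed as a 15-nt sequence.
zma-MIR-164b-3p in pear: cCCCACTTctccacc
ath-MIR-164b-3p in pear: cATGTGCCcctcttccccatc
zma-MIR-164c-3p in Hami melon: cATGTGCCcctcttctccatc
The Hami melon sequence differs from the maize reference by T10C, with the reference base first.

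Counting by name hid relatives elsewhere for other members. mtr-MIR-396b-5p held 9.55% in Hami melon, and the 4 other plants that listed it reached at most 2.79% in pear, a ratio of 3.42. Kiwifruit listed mtr-MIR-396a-5p instead, at 49.4%, which differs from the Hami melon sequence by the last base, G21T. Blueberry, coconut, grapefruit, orange, soybean and tomato also listed this form. When all names within 1 mismatch were summed, Hami melon ranked 2nd at 9.55% against a median of 1.02%. mtr-MIR-398a-3p held 0.831% in Hami melon and at most 0.0142% elsewhere by name, a ratio of 58.4 (35.7 to 103). Orange listed mtr-MIR-398c, which lies within 1 mismatch, at 1.48%, so by sequence Hami melon ranked 2nd here too.
mtr-MIR-396a-5p in kiwifruit: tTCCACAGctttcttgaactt
mtr-MIR-396b-5p in Hami melon: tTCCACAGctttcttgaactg
mtr-MIR-398c in orange: tGTGTTCTcaggtcgcccctg
mtr-MIR-398a-3p in Hami melon: tTGTGTTCtcaggtcacccct

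The same summing over sequences within 1 mismatch was done for each of the 20 most abundant names, a comparison chosen after the values were seen. A relative was found in another plant for 18 of them, and for 8 of the 18 the Hami melon share stayed the highest. Besides mtr-MIR-159a, ath-MIR-8175 and both MIR-164 strands, these were cme-MIR-530b (0.522% against 0.178% in kiwifruit), cme-MIR-169k (0.430% against 0.0146% in kiwifruit), cme-MIR-399d (0.368% against 0.173% in pear) and osa-MIR-5538 (0.412% against 0.0107% in tomato, where it rested on 14 reads). Counted as a whole family, MIR-169 was higher in soybean (1.90%) and pea (0.737%) than in Hami melon (0.613%). MIR-399 was higher in orange, at 0.574% against 0.374%. The other families of these 8 names stayed highest in Hami melon. No relative was listed elsewhere for cme-MIR-477b at 401 RPM or mtr-MIR-2111m-5p at 379 RPM. Both families were present in other plants under other names, MIR-477 in 4 of them and MIR-2111 in 2.

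Names matched to the melon reference were a small part of the melon library. The table holds 12 cme names, of which 10 were listed in Hami melon, and these 10 summed to 2.16% of its level (2.06 to 2.25%). The other 70 names carried prefixes of other species and held 97.8%. The prefix mtr alone held 63.0% with 17 names, and osa held 0.980% with 12 names. In soybean, 54 of 127 names carried its own prefix gma and held 26.3% of the level, and in tomato 25 of 118 names carried sly and held 6.45%. A prefix names the reference entry that was matched and depends on which species have entries in miRBase, and no file ties a read to its precursor. It also need not be that of the plant where a sequence is shared. The 21 nt of mtr-MIR-159a were listed under this name in 9 other plants as well, among them soybean, where it held 42.0%. How a name was chosen among species with the same sequence is not stated.

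Of the 10 cme names, 9 were listed in Hami melon only. They were cme-MIR-477b at 401 RPM, cme-MIR-530b at 334 RPM, cme-MIR-169k at 267 RPM, cme-MIR-399d at 236 RPM, cme-MIR-169t at 66.4 RPM, cme-MIR-7129 at 22.6 RPM, cme-MIR-858 at 16.8 RPM, cme-MIR-164b at 8.76 RPM and cme-MIR-169p at 8.03 RPM. The tenth, cme-MIR-166i, stood at 20.4 RPM and was listed in 7 other plants as well. Those not listed in Hami melon were cme-MIR-399g, found in orange at 110.0 RPM and pear at 4.71 RPM, and cme-MIR-167e, found in soybean at 85.5 RPM. Only 4 of the 10 listed sequences matched the melon reference base for base: cme-MIR-169k, cme-MIR-169t, cme-MIR-169p and cme-MIR-164b. The MIR-169 names among them share bases 2 to 8 (GAGCCAA) and together held 0.533%. The 4 names cme-MIR-477b, cme-MIR-530b, cme-MIR-858 and cme-MIR-166i began 1 or 2 bases before their reference.
cme-MIR-530b in Hami melon: cCTGCATTtgcacctacacct
cme-MIR-530b reference: tGCATTTGcacctacacctt
cme-MIR-477b in Hami melon: tCTCTCCCtcaaaggcttctgg
cme-MIR-477b reference: cTCTCCCTcaaaggcttctg

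The listed sequence began at the reference base for 46 of 80 names (57.5%), a share of names above that of tomato only, at 56.8%, with a median of 70.9% over the other 10. Names that began before the reference numbered 12 and held 10.4% of the level, the highest of the 11 plants, where the others ran from 0 in ginger to 7.93% in grapefruit. Of this, 5.78 points came from aly-MIR-166h-3p and 2.52 points from zma-MIR-398b-5p. The latter places on its reference only with 1 mismatch and 2 bases outside it. In grapefruit it held 0.0803%, so most of the lead over grapefruit rests on this uncertain placement. All 10 other plants listed aly-MIR-166h-3p with the reference start, and Hami melon alone listed it 1 base earlier. As the file gives only the most abundant sequence of a name, the share of reads with each start is not known. cme-MIR-166i and osa-MIR-166e-3p were listed with the same earlier start. Both lay within 1 mismatch of aly-MIR-166h-3p, at 0.549% and 0.0985% of the reads of the pair, and whether they are separate miRNAs was not tested. mtr-MIR-398a-3p was also listed 1 base earlier than in the 3 other plants that had it. gma-MIR-166h-3p, which begins yet 1 base before that, was identical in Hami melon and 9 other plants. Moving the start by 1 base changes bases 2 to 8, so aly-MIR-166h-3p carried TCGGACC there in Hami melon and CGGACCA in the other plants.
aly-MIR-166h-3p in the other 10 plants: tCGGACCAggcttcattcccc
aly-MIR-166h-3p in Hami melon: tTCGGACCaggcttcattccc
gma-MIR-166h-3p in Hami melon: tCTCGGACcaggcttcattcc

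For mtr-MIR-319d-3p, Hami melon listed 20 nt, without the final base of the 21-nt reference, and none of the other 10 listed the identical sequence, although 8 of them began at the same base and orange, which began 1 base earlier, ended at the same base. Over all 80 names, 31 listed sequences were identical to their reference and held 65.7% of the level. Placed without gaps, 71 were within 2 mismatches and held 99.9%. The 9 names beyond 2 mismatches were 14 to 17 nt long and held 0.132%. The exact sequence was listed in at least 1 other plant for 28 names, which held 81.1% of the level, against a median of 93.7% for the other plants. Names that shared bases 2 to 8 with another Hami melon name numbered 20, in 9 groups, and the largest groups by level were mtr-MIR-159a with osa-MIR-159f (TTGGATT), aly-MIR-166h-3p with cme-MIR-166i (TCGGACC) and ath-MIR-164b-5p with osa-MIR-164e (GGAGAAG).

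Both strands of a hairpin were listed for several families, and 7 families had names of both arms. Laid against each other without gaps, the MIR-164, MIR-396 and MIR-168 strands of Hami melon each faced over 19 positions and left 2 bases free at both 3′ ends. The MIR-164 strands formed 16 Watson-Crick and 1 G:U pair, those of mtr-MIR-396b formed 17 and 1, and those of mtr-MIR-168c formed 14 and 3. The names of the MIR-164 strands came from 2 reference species, so no file ties them to the same precursor.
ath-MIR-164b-5p: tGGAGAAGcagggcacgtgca
zma-MIR-164c-3p: cATGTGCCcctcttctccatc
mtr-MIR-396b-5p: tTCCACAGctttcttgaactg
mtr-MIR-396b-3p: gTTCAATAaagctgtgggaag
mtr-MIR-168c-5p: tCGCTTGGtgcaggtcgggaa
mtr-MIR-168c-3p: cCCGCCTTgcatcaactgaat

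The balance of the strands differed from family to family, and ratios are by exact name unless stated. The 5p strand of MIR-164 was 4.50 times as high as the 3p strand (3152 against 700.4 RPM), while in orange, the only other plant that listed both names, it was 73.8 times as high, with 5 reads of the 3p strand. With each strand summed over names within 1 mismatch of the Hami melon sequence, a comparison chosen after the values were seen, the ratio was 7.92 in pear and 1.33 in kiwifruit, on either side of Hami melon. mtr-MIR-396b-5p was 120 times as high as mtr-MIR-396b-3p (6116 against 51.1 RPM), and the plants that listed both names were ginger (14.7), grapefruit (0.618) and pear (17.2). Summed by sequence, the ratio ran from 3.21 to 26.5 in 5 other plants. Blueberry and kiwifruit are not among these 5, because their listed mtr-MIR-396b-3p lies 2 mismatches from that of Hami melon. With the 3p strand taken by name, blueberry reached 30.7 and kiwifruit 2099, so the place of Hami melon depends on how the strands are matched. mtr-MIR-168c-5p was 5.18 times as high as mtr-MIR-168c-3p (125 against 24.1 RPM), within the range of 1.59 to 30.4 in 6 other plants. In MIR-166 the 3p strand led, with aly-MIR-166h-3p 24.9 times as high as mtr-MIR-166g-5p (3701 against 149 RPM), within the range of 1.64 to 181 in 8 other plants. Against mtr-MIR-166g-5p, aly-MIR-166h-3p of Hami melon left 1 base free at each 3′ end. Its sequence both begins and ends 1 base earlier than the one listed in the other plants. The sequences of blueberry, grapefruit, kiwifruit and orange left 2 bases free at each 3′ end. The listed strands of pear and tomato left 1 and 2 bases free at the 3′ ends of the 5p and 3p strands, and those of pea and soybean left 0 and 2. bdi-MIR-166d-5p, another 5p strand, stood at 21.2 RPM. mtr-MIR-393a stood at 208 RPM against 16.1 RPM for ath-MIR-393a-3p, with osa-MIR-393b-5p at 8.76 RPM, and aly-MIR-156e-5p at 172.2 RPM against 3.65 RPM for osa-MIR-156h-3p. zma-MIR-398b-5p was 3.03 times as high as mtr-MIR-398a-3p, but these strands paired at only 10 Watson-Crick positions of 16 and the 5p sequence was 17 nt long.

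**Figure D3:**
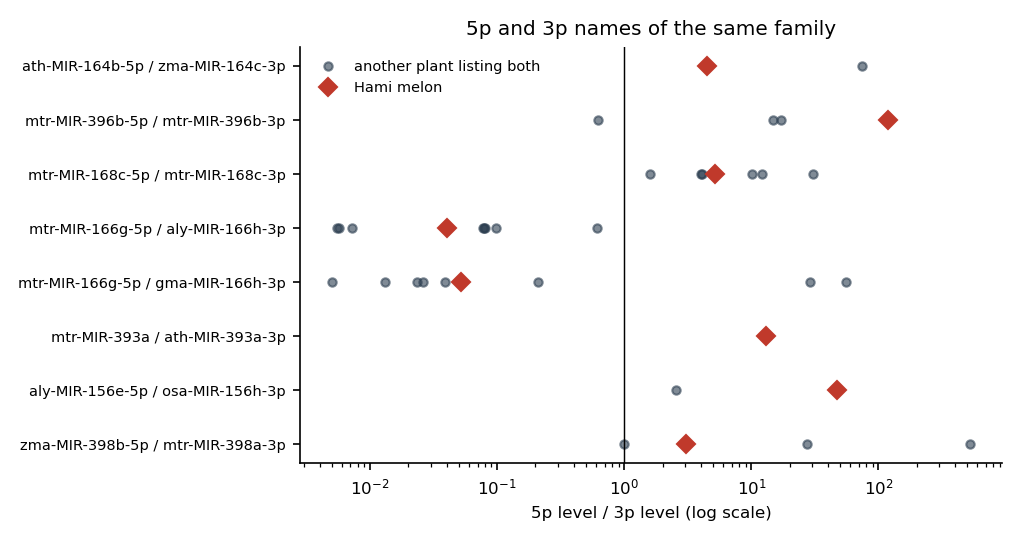
Ratio of the 5p to the 3p level on a log axis for 8 pairs of names, with red diamonds for Hami melon and dark points for each other plant that lists both names. Only the MIR-166 pairs lie left of 1 in Hami melon. Names are matched exactly, so plants that list a strand under a sister name, such as kiwifruit for MIR-396, have no point.

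By the arm in the name, 19 names of the 5p arm held 18.7% of the level, 16 of the 3p arm held 19.04% and 45 that name no arm held 62.2%. By length, 21-nt sequences held 73.7% of the Hami melon level with 41 names, and sequences of 20 to 22 nt held 82.8% (82.5 to 83.0%), 6th of the 11 plants. A separate peak lay at 17 nt, with 8 names and 16.7%, where the other plants ran from 0.0400% in pear to 44.2% in grapefruit. Almost all of it was ath-MIR-8175, bdi-MIR-5054 and zma-MIR-398b-5p, and the other 17-nt names held 0.640%. Names shorter than 18 nt numbered 21. T was the first base of 44 names and 80.6% of the level, C that of 20 names and 16.1%, and A that of 0.0570%, the lowest share of A among the 11 plants. A first T (U in RNA) is the usual mark of miRNAs loaded into AGO1.

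**Figure D4:**
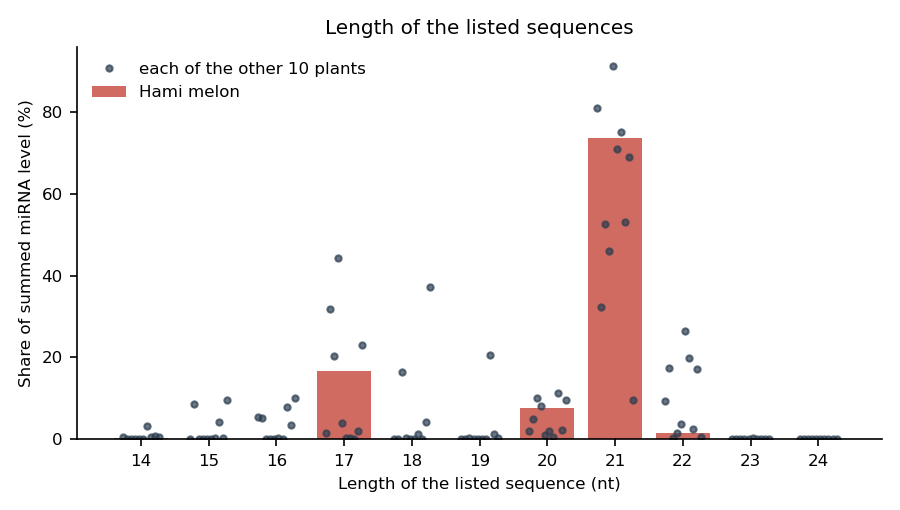
Share of the summed level in percent by length of the listed sequence in nt, with bars for Hami melon and a point for each of the other 10 plants. Hami melon shows a main peak of 73.7% at 21 nt and a second peak of 16.7% at 17 nt.

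The 17-nt names ath-MIR-8175 and bdi-MIR-5054 belong to a list of fragment-like families, whose references look like stretches of tRNA or rRNA. The list was written after the values had been seen. In Hami melon 7 of its names held 14.3% of the level (14.03 to 14.5%), 5th of the 11 plants, where the others ran from 1.15% in pea to 87.6% in grapefruit. ath-MIR-8175 led with 9.18%, the highest share of the 11 plants, ahead of grapefruit at 5.07% and a median of 0.385%. On the RPM scale Hami melon was 3rd for it. The listed 17 nt were the same in 7 other plants and begin 3 bases into the reference. bdi-MIR-5054 held 4.36%, 5th of 11, against a median of 3.90%. The others were osa-MIR-5077 at 168.5 RPM, gma-MIR-6300 at 152 RPM, osa-MIR-5072 at 79.5 RPM, peu-MIR-2916 at 51.1 RPM and bdi-MIR-5059 at 5.11 RPM. Sequences that end in CCA also numbered 7 and held 14.1%, but the sets differ. On the list, gma-MIR-6300 and peu-MIR-2916 do not end in CCA, while ppt-MIR-1030d and ppt-MIR-1029 do so and are not on it. gma-MIR-6300 was 0.237% in Hami melon and 34.2% in tomato, another ground juice. zma-MIR-398b-5p is not on this list, but its 17 nt place on the maize reference only with 1 mismatch and 2 bases outside it, and 5 other plants listed the identical sequence. Kiwifruit listed the first 15 nt of it under another family name, mtr-MIR-5266, at 0.0653%.

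Names listed in Hami melon only numbered 31, which is 7.42% of the 418 names, and held 3.13% of the level. This count ranked 3rd together with soybean, behind kiwifruit with 35 and tomato with 50, and the lowest was 2 in coconut. As a percent of the names of each plant, Hami melon ranked 2nd at 38.75%, behind tomato at 42.4%. Kiwifruit stood at 29.9% and soybean at 24.4%. The 9 cme names among them held 2.12%, and 18 of the 31 had 10 reads or more. Besides the cme names and mtr-MIR-2111m-5p, those with 10 reads or more were aly-MIR-169n-5p at 42.3 RPM, osa-MIR-5523 at 40.1 RPM, mtr-MIR-156g-5p at 32.1 RPM, ath-MIR-5656 at 24.1 RPM, bdi-MIR-166d-5p at 21.2 RPM, ath-MIR-393a-3p and osa-MIR-5788 at 16.1 RPM each and ptc-MIR-156k at 8.03 RPM. None of the 31 exact sequences was listed elsewhere, but 10 came within 1 mismatch of a sequence of another plant. cme-MIR-858, for example, contains the whole sequence that orange lists as ath-MIR-858b, and cme-MIR-399d contains the one that grapefruit and pear list as mtr-MIR-399l. The family was present in other plants for 17 of the 31 and in none for 14. Of these 14, only osa-MIR-5523, ath-MIR-5656, cme-MIR-7129 and osa-MIR-5788 had 10 reads or more. Placed without gaps, ath-MIR-5656 and osa-MIR-5788, 16 and 15 nt long, had 4 and 7 mismatches to their references, and a placement with gaps was not tried.
cme-MIR-858 in Hami melon: cTCTCGTTgtctgttcgaccttg
ath-MIR-858b in orange: cTCGTTGTctgttcgaccttg
cme-MIR-7129: cAAATCTAaacgatcgtgtacc
osa-MIR-5523: tGAGGAGGaacgtatttacta

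Several rare names lay 1 base from a far more abundant one. Of the 80 names, 5 were within 1 mismatch of a name at 50 times their level or more, a count that ran from 0 in coconut to 9 in soybean. osa-MIR-159f (26.3 RPM, T1C), aqc-MIR-159 (8.03 RPM, T7C) and zma-MIR-159i-3p (3.65 RPM, T7G) differed from mtr-MIR-159a, with its base first. Their reads were 0.0932%, 0.0285% and 0.0129% of the pair with mtr-MIR-159a. cme-MIR-166i (20.4 RPM, C20T) and osa-MIR-166e-3p (3.65 RPM, G5A) differed from aly-MIR-166h-3p and were 0.549% and 0.0985% of the pair. Whether such names are separate miRNAs or misread copies of the abundant one was not tested.

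The Hami melon library listed no name of the families MIR-472, MIR-482, MIR-1507, MIR-1510, MIR-2109 and MIR-2118, which act on disease resistance genes of the NBS-LRR class in other plants. The table held 32 such names and 9 of the other 10 plants listed some, with a median share of 4.97% and a highest of 21.2% in orange. Ginger was the other plant without one, at 16923 miRNA reads and the smallest implied read total, 236959. Coconut, with the fewest miRNA reads (4541) but an implied total of 1545124, held 8.63%. Whether depth played a part in Hami melon was not tested. MIR-482 and MIR-2118 were each listed in 9 of the other plants. In all, 18 of the 46 families found in 4 or more other plants (39.1%) were not listed in Hami melon, and in the other plants this number ran from 7 of 47 in pear to 18 of 47 in pea, 25 of 49 in coconut and 31 of 49 in ginger. They included MIR-160, MIR-172, MIR-390, MIR-403, MIR-535 and MIR-827 as well as the fragment-like MIR-6478 and MIR-8155. Of the 26 frequent miRNAs (FMs, listed in 8 to 11 plants), 5 were not listed in Hami melon (19.2%), namely ptc-MIR-6478, mtr-MIR-398c, ath-MIR-167d, gma-MIR-1507a and cpa-MIR-8155. For MIR-167 and MIR-398 another member of the family was listed.

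**Figure D5:**
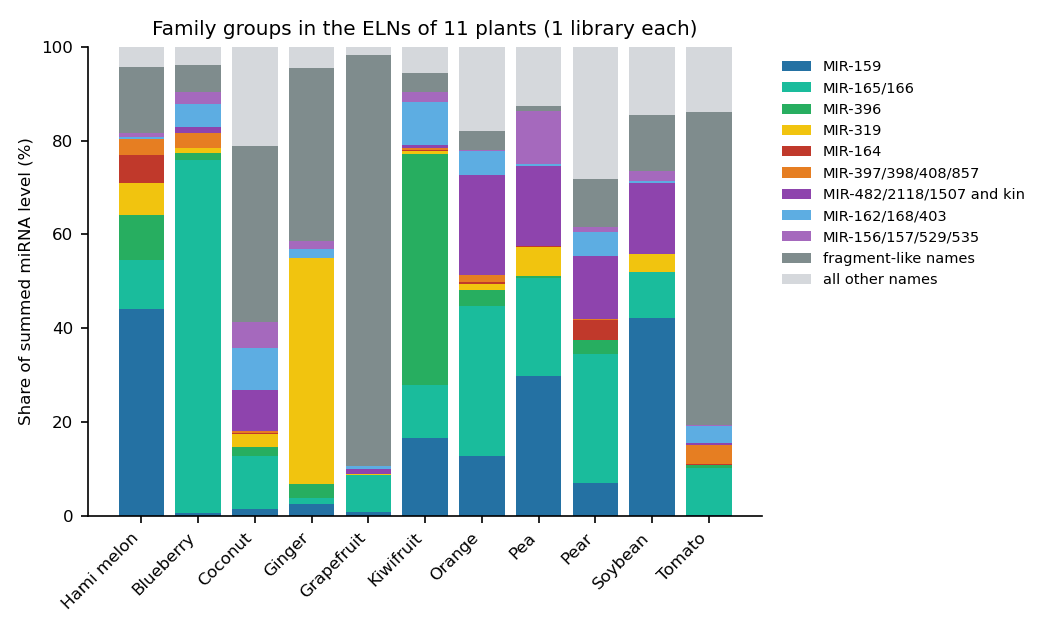
Share of the summed level in percent held by groups of families in each of the 11 plants, stacked to 100%, with 1 library per plant. Hami melon has the tallest MIR-159 segment (44.0%) and the tallest MIR-164 segment (6.04%) and no segment for MIR-482 and related families, which reach 21.2% in orange.

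By family, 38 of the 52 families of Hami melon were also found elsewhere, and 11 of these had their highest share in Hami melon, which is 12% of the 92 families in 2 or more plants. They were MIR-159, MIR-164, MIR-477, MIR-530, MIR-771, MIR-1030, MIR-2111, MIR-3632, MIR-4995, MIR-5538 and MIR-8175. For MIR-477 the margin was narrow, with 0.645% in Hami melon and 0.637% in orange. For MIR-530 it was 0.522% against 0.178% in kiwifruit and for MIR-2111 it was 0.591% against 0.0161% in kiwifruit.

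Across plants, the profile of Hami melon shared most with soybean, mainly through mtr-MIR-159a. The sum over names of the smaller of both shares was 58.2% with soybean, 42.5% with pea and 30.7% with kiwifruit, and between 16.2% with grapefruit and 24.2% with orange for the rest. mtr-MIR-159a alone made up 42.0 points of the overlap with soybean, 29.6 points of that with pea and 16.5 points of that with kiwifruit. The leading places of these plants therefore rest on this name. Of the overlap with tomato, 18.4%, it made up 0.0886 points. By number of names the order was different: pear and orange shared 30 names with Hami melon, tomato and kiwifruit 29, soybean 27 and coconut 12. In the classes by number of plants, 21 FMs held 83.8% of the Hami melon level, 12 moderately present miRNAs (MPMs, in 4 to 7 plants) held 11.1%, and 47 rare miRNAs (RMs, in 1 to 3 plants) held 5.05%. The MPM class was carried by mtr-MIR-396b-5p.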

How the data were processed

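Small RNA of ELNs from 11 plants was sequenced on an Illumina HiSeq instrument, 1 library per plant. After removing adaptors and low-quality reads, the authors ran MIRPIPE against mature miRNAs of plants in miRBase 21, allowing 2 mismatches. They deposited RPM values with the most abundant sequence of each name. The read total behind RPM is not given in the sources used here, and the totals implied by the values lie below the high-quality reads that the paper gives. The merged table and the 11 single files held the same 950 values. No genome was used, so no positions are given.

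Read counts were recovered from the common step of each library (tolerance 0.01 of a read) and served for read minimums, thinning and Poisson and Wilson intervals at the 95% level, and no count test was possible with 1 library per plant. PCR copies carry no molecular identifiers, so intervals cover counting error only. Families are names with the same number. Sequences were placed without gaps. A near copy lay within 1 mismatch of a name at 50 times its level, with up to 2 end bases free. Sequence functions were tested on simulated data. Tables were made in Python 3.11.15 with pandas 2.3.3 and numpy 2.4.6, intervals with scipy 1.17.1 and plots with matplotlib 3.10.9.

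Names described are ranks 1 to 20, every cme name, every name listed in Hami melon only with 10 reads or more, both arms of a family, near copies and the leading member of each list. Any other name was picked with its value in view. The members, lists and measures were chosen with earlier results of these data known. The alternatives changed the listing limit, depth, length, names used and plants compared.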

Additional observations from a re-analysis of the deposited data

How the results depend on the processing

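Of 41 alternatives tried on 9 results, 16 kept the value within 1.5 times for a count or within the counting interval for a share. None could change a test, as none was made.

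The counts rest on the listing limit. With names listed only at 10 reads or more, the names listed in Hami melon only fell from 31 to 20, those with their highest share there from 14 to 9 and near copies from 5 to 3. With names listed only at 29.5 RPM or more, the highest of the smallest listed values, 35 names were listed, 14 in Hami melon only, 4 had their highest share there and cme names held 2.05%. Thinned to the read total of ginger (236959), 43.2 names were expected, 17.4 of them in Hami melon only and 4.76 with their highest share there. Counted as families, 52 were listed and 14 were in Hami melon only. At 10 times the level, near copies numbered 8.

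The shares moved with their denominator. Without fragment-like names, mtr-MIR-159a held 51.3%, cme names 2.51%, 20 to 22 nt 96.5% and MIR-164 7.04%. Over sequences of 18 nt or more, mtr-MIR-159a held 53.0%, cme names 2.60%, MIR-164 7.28% and fragment-like names 0.00962%. Without mtr-MIR-159a, cme names held 3.85%, 20 to 22 nt 69.2%, fragment-like names 25.5% and MIR-164 10.8%.

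No paired analysis was possible because each plant was 1 library. Depth limits what can be said of names near 5 reads, and plant, tissue and juice step cannot be told apart.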
